A study of Mus musculus with 41 samples.

Results

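The metalloproteinases described here are zinc-dependent proteases that act outside the cell or at its surface, together with their protein inhibitors. Members were taken by a rule on gene symbols: matrix metalloproteinases (Mmp genes), disintegrin metalloproteinases (Adam genes, without Adam10 and Adam17), disintegrin metalloproteinases with thrombospondin motifs (Adamts genes), the related Adamtsl genes and the tissue inhibitors of metalloproteinases (Timp genes). The family itself was chosen with earlier results of these data known. The rule found 41 genes among the 13886 listed in a feeder co-culture experiment, of which 35 were also listed among 12984 genes in an inhibitor co-culture and 36 among 13407 in a recombinant-ligand experiment. Adam4, Adamts14, Mmp24 and Mmp28 were listed in the feeder experiment alone, Adamts16 and Adamtsl3 were not listed in the inhibitor co-culture, and Adamts3 was not listed in the recombinant-ligand experiment. The 41 genes comprise 5 secreted MMPs, 6 membrane-bound MMPs, 10 ADAMs, 13 ADAMTS proteases, 4 ADAMTS-like proteins and 3 TIMPs.

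MMPs cleave collagens and other matrix proteins, and the membrane-type enzyme MMP14 also activates proMMP2 at the cell surface with the help of TIMP2. Catalytic ADAMs shed the outer parts of membrane proteins, while ADAMTS enzymes trim procollagens and cut large proteoglycans such as versican, a main component of the cardiac jelly between endocardium and myocardium. ADAMTS-like proteins resemble ADAMTS proteases but lack the protease domain, and TIMPs bind and block the active sites, with TIMP3 held in the matrix and acting on MMPs, ADAMs and ADAMTS enzymes. Endocardial Notch signalling is known for its part in trabeculation and in the endocardial-to-mesenchymal transition that forms valves, both of which involve turnover of this matrix.

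RNA-seq of 13 groups (41 libraries) was made from MEEC, wild-type endocardial cells of the mouse embryo kept as 1 line. In the recombinant-ligand experiment MEEC grew for 38 h, the last 14 h without serum, on dishes with rDLL4 (DLL4-His) plus 20 µM RO4929097, rJAG1 (JAG1-Fc) plus 20 µM RO4929097, rDLL4 plus DMSO, rJAG1 plus DMSO, or in DMSO without ligand (n = 3 each). RO4929097 inhibits gamma-secretase, the enzyme that frees the intracellular part of an activated Notch receptor. In the inhibitor co-culture MEEC had been kept for 24 h in 20 µM RO4929097 or in DMSO and were then laid at 50% confluency over OP9-GFP cells for 6 h (n = 4 each). In the feeder experiment MEEC lay for 24 h (25% confluency) or for 6 h (50% confluency) over OP9-Dll4, OP9-Jag1 or OP9-GFP cells, mouse stromal cells that carry the ligand or GFP (n = 3 each). Feeders were at 90% confluency. No group had the inhibitor without ligand in the recombinant experiment, and the labels describe no tagged control protein on the DMSO dishes. OP9 cells are also mouse cells and the labels do not say that they were removed before RNA extraction, so in both co-cultures MEEC and OP9 transcripts, and fewer cells of a type and less RNA per cell, cannot be told apart. Whether the libraries of 1 group are separate cultures is not given by the labels, and p-values therefore reflect the spread between these libraries, which may be technical.

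Libraries of the feeder experiment held 14.1 to 16.8 M reads and 12 of the recombinant experiment 11.2 to 23.1 M; the depth of the other 11 libraries was not read from their values. The Notch target and feedback genes Hey1, Hey2, Heyl, Hes1 and Nrarp were all higher with either recombinant ligand and all lower when RO4929097 was added, and the 4 of them listed in the inhibitor co-culture were lower with the inhibitor. Against OP9-GFP, 3 of these 5 genes were called higher over OP9-Dll4 and 4 over OP9-Jag1 at 24 h. At 6 h 3 were called higher over OP9-Jag1 and 0 over OP9-Dll4. The pan-endothelial genes Pecam1, Cdh5, Tie1, Erg and Emcn were looked up and were not listed in any of the 3 experiments. Genes as weak as Adamtsl3, with a median of 8 reads, were listed in the feeder experiment. The endothelial identity of the cell line is therefore not borne out by these pan-endothelial genes. In the feeder experiment the 3 libraries numbered 2 at 6 h stood apart from the others of their groups, with Mmp2 at 493, 423 and 465 against 201 to 261 in the other 6 libraries at 6 h. DMSO library 3 of the recombinant experiment was the lowest of its group for Mmp2, Mmp14, Mmp17, Adam12, Adam33 and Adamts16, among others.

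All values are the authors' normalized signal, each experiment scaled apart, and levels of different genes were compared per kb of exon. In both co-cultures the inhibitors and the broadly expressed protease Adam9 stood highest. In the feeder experiment the mean over groups was 348 signal per kb for Timp3, 274 for Timp2, 161 for Adam9, 96.3 for Timp1, 75.8 for Mmp2 (gelatinase A), 53.3 for Adamts1, a versican-cleaving protease, and 52.8 for Mmp14. The next gene, Adam15, lay at 10.9, and 17 members lay below 1 signal per kb, down to 0.0894 for Adamtsl3. In the GRCm38 annotation Mmp14 lies at chr14:54431612-54445364 (plus strand), Mmp2 at chr8:92827291-92853420 (plus), Mmp13 at chr9:7272514-7283331 (plus), Adam12 at chr7:133883199-134232146 (minus), Adamts9 at chr6:92772699-92943492 (minus), Adamts16 at chr13:70727802-70841811 (minus) and Timp3 at chr10:86300372-86349506 (plus). The same 7 genes as in the feeder experiment held the highest levels in the other experiments, where Timp3 averaged 262 and 354 signal per kb in the inhibitor co-culture and the recombinant experiment. Their order differed in the recombinant experiment, where Timp1 (47.7) lay below Mmp2 (81.1), Adamts1 (54.9) and Mmp14 (48.9). Timp3 shares 21.28% of its exon bases with Syn3, which contains it, and Mmp19 shares 22.33% with Tmem198b, so reads of these pairs may be confused where the counting ignored strand. The collagenase Mmp13 had the widest spread of group means in the feeder experiment, 15.3-fold between the highest and the lowest group.

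**Figure D1:**
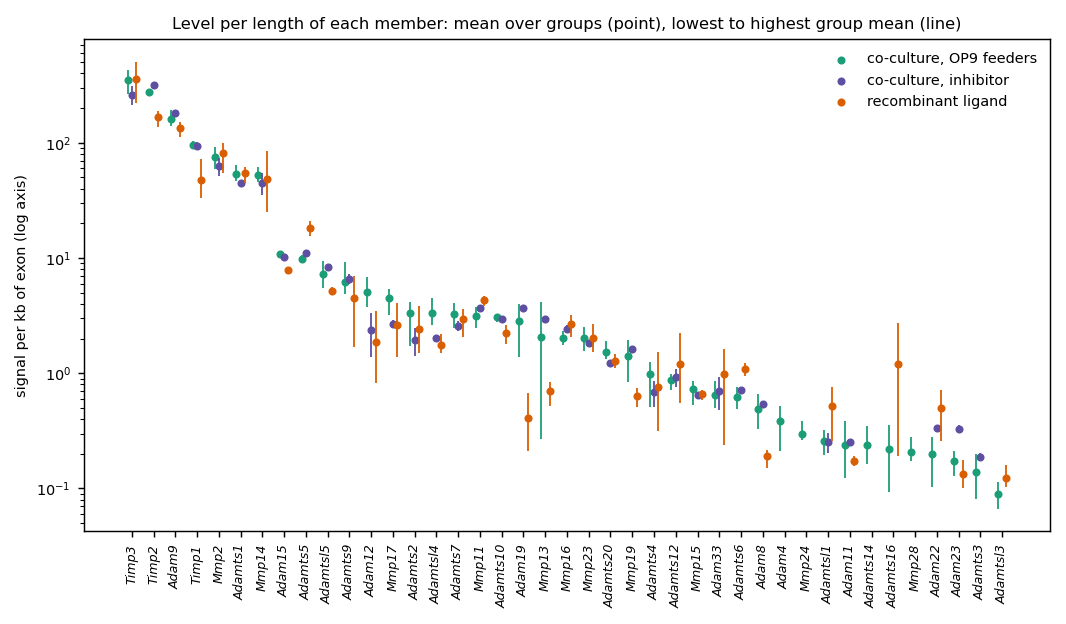
Signal per kb of exon (log axis) of every member in the 3 experiments; points are the mean over groups and lines run from the lowest to the highest group mean. Timp3, Timp2, Adam9, Timp1, Mmp2, Adamts1 and Mmp14 stand above the rest in all 3 experiments, and the longest line is that of Mmp13 in the feeder experiment.

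With recombinant ligand, many of the members moved, most of them upward. Adam12, Adam19, Adamts2, Adamts12, Adamts16, Mmp14, Mmp17 and Timp3 rose with both ligands, while Adamts9, Adam22 and Adam33 fell with both. With rDLL4, 8 of 36 listed members rose and 3 fell, 30.6% of the members, while 3.5% of all 13407 genes were called in either direction at an adjusted p under 0.05. With rJAG1, 12 rose and 4 fell, 44.4% of the members, against 9.58% of all genes. The median log2 difference over the members was 0.205 with rDLL4 and 0.161 with rJAG1, against -0.001 and 0.001 over all genes. Both comparisons share the DMSO libraries. Without DMSO library 3 the counts were 13 with rDLL4 and 19 with rJAG1. A second fit took the replicate number as a block (called the replicate block below) and called 6.47% of all genes with rDLL4 and 15.1% with rJAG1, and among the members added 5 with rDLL4 and 4 with rJAG1, each named below.

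When RO4929097 was added to the ligand, the pattern turned round. With the inhibitor on rDLL4, 12 members fell and 5 rose, 47.2% of them against 10.7% of all genes, and on rJAG1 14 fell and 7 rose, 58.3% against 18.4%. Median log2 differences over the members were -0.179 on rDLL4 and -0.222 on rJAG1, against 0.005 over all genes in both. The replicate block called 27.1% of all genes under the inhibitor on rJAG1 and added Adam9, Adamts5 and Adamts20. In the same fit the ligand and the inhibitor comparisons share the ligand libraries, so their values are given side by side below and are not independent of each other. Differences are between means of log2(signal + 1), so that folds of weakly expressed genes come out smaller than they are. They are given ± their standard error (SE) with a Benjamini-Hochberg adjusted p from limma, here over 3 libraries per group.

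Among the membrane-bound MMPs, Mmp14, the membrane-type collagenase, gave a signal of 161, 166 and 138 with rDLL4 plus RO4929097, 154, 152 and 138 with rJAG1 plus RO4929097, 429.8, 421 and 365 with rDLL4, 502, 587 and 416 with rJAG1 and 285, 253 and 202 in DMSO. Every ligand library lay above every DMSO library, and every library with the inhibitor lay below all of them. Its log2 difference from DMSO was 0.72 ± 0.13 (adjusted p = 0.0051) with rDLL4 and 1.02 ± 0.13 (adjusted p = 9.47e-05) with rJAG1. Adding the inhibitor changed it by -1.38 ± 0.13 (adjusted p = 6.19e-06) on rDLL4 and by -1.74 ± 0.13 (adjusted p = 2.42e-07) on rJAG1. Mmp17, a lipid-anchored MMP, gave a signal of 16.5, 15.2 and 16.1 with rDLL4 plus RO4929097, 14.9, 15.6 and 15.2 with rJAG1 plus RO4929097, 19.5, 21.3 and 17.4 with rDLL4, 28.5, 29.5 and 23.3 with rJAG1 and 10.9, 10.1 and 6.45 in DMSO. With the inhibitor it lay below the ligand libraries but above all 3 DMSO libraries. It rose by 1.03 ± 0.15 (adjusted p = 0.000721) with rDLL4 and 1.49 ± 0.15 (adjusted p = 6.98e-06) with rJAG1, and fell under the inhibitor on rJAG1 (-0.78 ± 0.15, adjusted p = 0.00131), whereas its difference under the inhibitor on rDLL4, -0.26 ± 0.15 (adjusted p = 0.314), did not pass. Mmp23, which has an N-terminal membrane anchor, rose with rJAG1 (0.59 ± 0.16, adjusted p = 0.0329) and differed with rDLL4 by 0.49 ± 0.16 (adjusted p = 0.151), which only the replicate block called (adjusted p = 0.0306). It fell under the inhibitor on both ligands, with differences of -0.56 on rDLL4 and -0.53 on rJAG1. Mmp16 moved the other way: the inhibitor raised it by 0.48 ± 0.12 (adjusted p = 0.02) on rDLL4 and by 0.55 ± 0.12 (adjusted p = 0.0054) on rJAG1, while its differences with ligand alone, -0.24 and -0.38, were not called (with rJAG1, adjusted p = 0.0202 with the replicate block). The calls of Mmp23 were lost without some single libraries: with rJAG1 without rJAG1 library 1 or 2 or DMSO library 3 (log2 difference 0.43 to 0.70), and under the inhibitor in 5 of 6 such fits on rDLL4 (-0.66 to -0.51) and 4 of 6 on rJAG1 (-0.64 to -0.39). The Mmp16 call on rDLL4 was lost without rDLL4 library 1 or inhibitor library 2 or 3 (0.39 to 0.58).

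The secreted gelatinase Mmp2 behaved differently from Mmp14. It gave a signal of 188, 197 and 169.6 with rDLL4 plus RO4929097, 173, 213 and 169.6 with rJAG1 plus RO4929097, 342, 359.6 and 306 with rDLL4, 342, 370.2 and 289 with rJAG1 and 379, 367 and 234 in DMSO. Ligand and DMSO libraries overlapped, while all 6 inhibitor libraries lay below the other 9. The log2 difference was 0.07 ± 0.15 (adjusted p = 0.97) with rDLL4 and 0.05 ± 0.15 (adjusted p = 0.895) with rJAG1, neither of them called, and Mmp2 fell under the inhibitor, with differences of -0.86 ± 0.15 (adjusted p = 0.00173) on rDLL4 and -0.85 ± 0.15 (adjusted p = 0.00107) on rJAG1. Mmp11, Mmp13 and Mmp19 were not called in any comparison of this experiment, with log2 differences of Mmp13 between -0.41 and 0.14 over the ligand and inhibitor comparisons.

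Among the catalytic ADAMs, Adam12, which sheds growth factor precursors, gave a signal of 7.55, 12.6 and 10.6 with rDLL4 plus RO4929097, 6.85, 9.90 and 9.31 with rJAG1 plus RO4929097, 27.5, 41.1 and 27.5 with rDLL4, 37.1, 32.9 and 39.4 with rJAG1 and 12.6, 14.4 and 8.01 in DMSO. The ligand libraries lay above all others and did not overlap them. It rose by 1.39 ± 0.22 (adjusted p = 0.00161) with rDLL4 and by 1.60 ± 0.22 (adjusted p = 0.000139) with rJAG1, and fell under the inhibitor, with differences of -1.55 ± 0.22 (adjusted p = 0.000194) on rDLL4 and -1.96 ± 0.22 (adjusted p = 1.01e-05) on rJAG1. Adam19, a sheddase that mouse knockouts tie to heart development, gave a signal of 1.46, 1.42 and 2.14 with rDLL4 plus RO4929097, 1.52, 1.60 and 1.42 with rJAG1 plus RO4929097, 4.38, 4.41 and 5.46 with rDLL4, 5.21, 3.42 and 4.14 with rJAG1 and 2.61, 1.87 and 2.99 in DMSO. Its ligand libraries also lay above every other library. The differences were 0.73 ± 0.16 (adjusted p = 0.0219) with rDLL4 and 0.59 ± 0.16 (adjusted p = 0.0329) with rJAG1, and -1.11 ± 0.16 (adjusted p = 0.000343) and -1.05 ± 0.16 (adjusted p = 0.000288) on adding the inhibitor. Its ligand calls depended on single libraries: that with rDLL4 was lost when any library but DMSO library 3 was left out (0.60 to 0.83), and that with rJAG1 when any but DMSO library 3 and rJAG1 library 2 was (0.46 to 0.71). Adam33 went the other way, with a signal of 8.54, 9.91 and 8.01 with rDLL4 plus RO4929097, 8.51, 8.27 and 9.27 with rJAG1 plus RO4929097, 1.65, 2.81 and 2.44 with rDLL4, 1.43, 1.31 and 1.13 with rJAG1 and 5.56, 8.49 and 3.10 in DMSO. All ligand libraries lay below all others, and the DMSO libraries were widely spread. It fell with both ligands, with differences of -0.96 ± 0.23 (adjusted p = 0.0279) with rDLL4 and -1.47 ± 0.23 (adjusted p = 0.000478) with rJAG1, and rose by 1.59 ± 0.23 (adjusted p = 0.000254) and 2.08 ± 0.23 (adjusted p = 9.5e-06) on adding the inhibitor. The rDLL4 call of Adam33 held only without DMSO library 3 or rDLL4 library 2 among the 6 fits that left out 1 library (-1.27 to -0.67). Adam8, Adam9 and Adam15 were not called, and over the 6 comparisons the log2 differences ran from -0.04 to 0.13 for Adam15 and from -0.15 to 0.27 for Adam8. With the replicate block Adam9 was called lower with rJAG1 (-0.40 ± 0.10, adjusted p = 0.0108) and higher under the inhibitor on rJAG1 (0.33 ± 0.10, adjusted p = 0.0204).

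Adam22, which lacks protease activity and serves as a receptor for LGI proteins, gave a signal of 8.63, 11.3 and 10.9 with rDLL4 plus RO4929097, 7.37, 9.26 and 8.42 with rJAG1 plus RO4929097, 4.38, 6.48 and 5.02 with rDLL4, 3.44, 4.13 and 3.65 with rJAG1 and 7.86, 9.92 and 7.23 in DMSO. Ligand libraries were the lowest throughout. The differences were -0.57 ± 0.15 (adjusted p = 0.0498) with rDLL4 and -0.97 ± 0.15 (adjusted p = 0.000496) with rJAG1, and it rose by 0.85 ± 0.15 (adjusted p = 0.00159) and 0.98 ± 0.15 (adjusted p = 0.00025) when the inhibitor was added. The call with rDLL4 lay at the threshold, was lost with a pseudocount of 0.5 or a filter at signal 4, and among the 6 fits that left out 1 library was kept only without rDLL4 library 2 or DMSO library 3 (-0.70 to -0.45). Adam11 and Adam23 were not called.

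The ADAMTS proteases held the widest differences of the family. Adamts16 gave a signal of 1.01, 1.34 and 1.62 with rDLL4 plus RO4929097, 1.81, 1.65 and 1.42 with rJAG1 plus RO4929097, 14.3, 15.4 and 11.7 with rDLL4, 18.4, 21.3 and 15.9 with rJAG1 and 7.90, 6.57 and 2.71 in DMSO. It was below 2 in every inhibitor library and above 11 in every ligand library, and the DMSO libraries lay between and did not overlap either. It rose by 1.22 ± 0.24 (adjusted p = 0.00982) with rDLL4 and 1.62 ± 0.24 (adjusted p = 0.00039) with rJAG1, and fell by 2.67 (SE 0.24, adjusted p = 4.07e-06) and 2.89 (SE 0.24, adjusted p = 6.77e-07) when the inhibitor was added. Adamts12, which cleaves cartilage oligomeric matrix protein, gave a signal of 5.85, 7.75 and 6.73 with rDLL4 plus RO4929097, 5.70, 6.40 and 6.14 with rJAG1 plus RO4929097, 17.8, 20.0 and 18.8 with rDLL4, 23.8, 22.6 and 26.3 with rJAG1 and 9.28, 8.63 and 9.52 in DMSO. Here too the ligand libraries were above and the inhibitor libraries below all DMSO libraries. The differences were 0.97 ± 0.10 (adjusted p = 9.37e-05) with rDLL4, 1.31 ± 0.10 (adjusted p = 1.18e-06) with rJAG1, -1.36 ± 0.10 (adjusted p = 7.22e-07) on adding the inhibitor to rDLL4 and -1.83 ± 0.10 (adjusted p = 1.3e-08) on adding it to rJAG1.

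Adamts2, which removes the N-propeptide of fibrillar procollagens, gave a signal of 16.0, 18.2 and 17.9 with rDLL4 plus RO4929097, 14.2, 17.2 and 16.2 with rJAG1 plus RO4929097, 27.1, 31.6 and 28.3 with rDLL4, 36.9, 36.2 and 34.6 with rJAG1 and 14.2, 16.6 and 10.8 in DMSO. Its ligand libraries lay above all others, and the inhibitor and DMSO libraries overlapped. It rose by 1.03 ± 0.12 (adjusted p = 0.000197) with rDLL4 and 1.33 ± 0.12 (adjusted p = 4.54e-06) with rJAG1, and fell by 0.71 and 1.13 on the log2 scale under the inhibitor, with adjusted p = 0.00134 and 1e-05. The aggrecanase Adamts4 gave a signal of 1.28, 1.29 and 1.99 with rDLL4 plus RO4929097, 1.81, 1.70 and 1.27 with rJAG1 plus RO4929097, 6.35, 3.70 and 4.22 with rDLL4, 8.22, 6.69 and 7.20 with rJAG1 and 3.62, 2.73 and 2.21 in DMSO. The ligand groups lay above DMSO and the inhibitor groups below it, with no overlap. It rose with rJAG1, by 1.13 ± 0.19 (adjusted p = 0.000816), while its difference with rDLL4, 0.57 ± 0.19 (adjusted p = 0.137), did not pass. With the inhibitor it changed by -1.18 ± 0.19 (adjusted p = 0.000592) on rDLL4 and -1.69 ± 0.19 (adjusted p = 1.03e-05) on rJAG1.

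Adamts9, a versican-cleaving protease that mouse mutants link to heart development, moved the opposite way. It gave a signal of 90.8, 99.3 and 95.5 with rDLL4 plus RO4929097, 102, 99.3 and 111 with rJAG1 plus RO4929097, 37.6, 46.4 and 37.5 with rDLL4, 26.8, 22.3 and 27.5 with rJAG1 and 80.9, 75.1 and 72.3 in DMSO. The ligand libraries lay below, and the inhibitor libraries above, all DMSO libraries. It fell by 0.90 (SE 0.09, adjusted p = 7.99e-05) with rDLL4 and 1.54 (SE 0.09, adjusted p = 1.06e-07) with rJAG1, and rose by 1.22 ± 0.09 (adjusted p = 7.42e-07) and 1.99 ± 0.09 (adjusted p = 2.21e-09) under the inhibitor. The inhibitor lowered Adamts7, another COMP-cleaving enzyme, by 0.69 on rDLL4 and 0.63 on rJAG1 (adjusted p = 0.0352 and 0.0384), calls that were each kept in 1 of 6 fits that left out 1 library. It raised Adamts10, a fibrillin-related ADAMTS, on rJAG1 (0.50 ± 0.14, adjusted p = 0.0165), a call lost without rJAG1 library 3 or inhibitor library 2 or 3. Adamts1, Adamts5, Adamts6 and Adamts20 were not called in these comparisons, with log2 differences from -0.08 to 0.49 for Adamts1. With the replicate block Adamts1 rose with rDLL4, by 0.43 ± 0.11 (adjusted p = 0.0283), Adamts10 fell with rJAG1 (-0.36 ± 0.10, adjusted p = 0.0259), and under the inhibitor on rJAG1 Adamts5 and Adamts20 rose, by 0.41 ± 0.07 (adjusted p = 0.000719) and 0.36 ± 0.12 (adjusted p = 0.0359).

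Of the ADAMTS-like genes, Adamtsl1 gave a signal of 8.14, 11.4 and 9.44 with rDLL4 plus RO4929097, 7.42, 11.9 and 8.97 with rJAG1 plus RO4929097, 3.83, 5.06 and 3.33 with rDLL4, 3.28, 3.04 and 3.65 with rJAG1 and 6.69, 8.11 and 5.28 in DMSO. Its ligand libraries lay below all others. It fell with rJAG1 (-0.82 ± 0.18, adjusted p = 0.00811) and differed by -0.60 ± 0.18 (adjusted p = 0.103) with rDLL4, which only the replicate block called (adjusted p = 0.0214). The inhibitor raised it by 1.07 ± 0.18 (adjusted p = 0.00108) and 1.25 ± 0.18 (adjusted p = 0.000154). Adamtsl4, which binds fibrillin-1, rose with rJAG1 (0.48 ± 0.11, adjusted p = 0.00892) and fell under the inhibitor on rJAG1 (-0.42 ± 0.11, adjusted p = 0.0129). The first call was lost without DMSO library 1 and the second without inhibitor library 3. With rDLL4 it differed by 0.38 ± 0.11 (adjusted p = 0.0794), which the replicate block called (adjusted p = 0.0391).

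Among the inhibitors, Timp3 gave a signal of 1727, 1806 and 1884 with rDLL4 plus RO4929097, 2001, 2005 and 2047 with rJAG1 plus RO4929097, 4045, 4335 and 3950.4 with rDLL4, 4225, 3739 and 3934 with rJAG1 and 2716, 2479.7 and 2409 in DMSO. Ligand libraries lay above and inhibitor libraries below all DMSO libraries. It rose by 0.70 ± 0.08 (adjusted p = 0.000145) with rDLL4 and 0.65 ± 0.08 (adjusted p = 6.21e-05) with rJAG1, and the gamma-secretase inhibitor changed it by -1.19 ± 0.08 (adjusted p = 2.28e-07) and -0.97 ± 0.08 (adjusted p = 5.17e-07). Timp1, a secreted inhibitor of most MMPs, gave a signal of 31.6, 28.6 and 27.9 with rDLL4 plus RO4929097, 30.7, 29.3 and 28.5 with rJAG1 plus RO4929097, 49.6, 53.8 and 50.2 with rDLL4, 60.7, 80.1 and 52.0 with rJAG1 and 41.2, 36.8 and 34.7 in DMSO. The ligand libraries again lay above DMSO and the inhibitor libraries below it. It rose with rJAG1 by 0.74 ± 0.12 (adjusted p = 0.000724). With rDLL4 its difference of 0.44 ± 0.12 (adjusted p = 0.0594) did not pass, though the replicate block called it (adjusted p = 0.0194), and the inhibitor changed it by -0.78 ± 0.12 (adjusted p = 0.000453) and -1.07 ± 0.12 (adjusted p = 1.18e-05). Timp2, the partner of MMP14 in activating proMMP2, was higher under the inhibitor on rJAG1 (0.45 ± 0.12, adjusted p = 0.0139), a call lost without rJAG1 library 2 or inhibitor library 1. Its difference with rJAG1 was -0.33 ± 0.12 (adjusted p = 0.103) and passed with the replicate block (adjusted p = 0.0022).

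**Figure D2:**
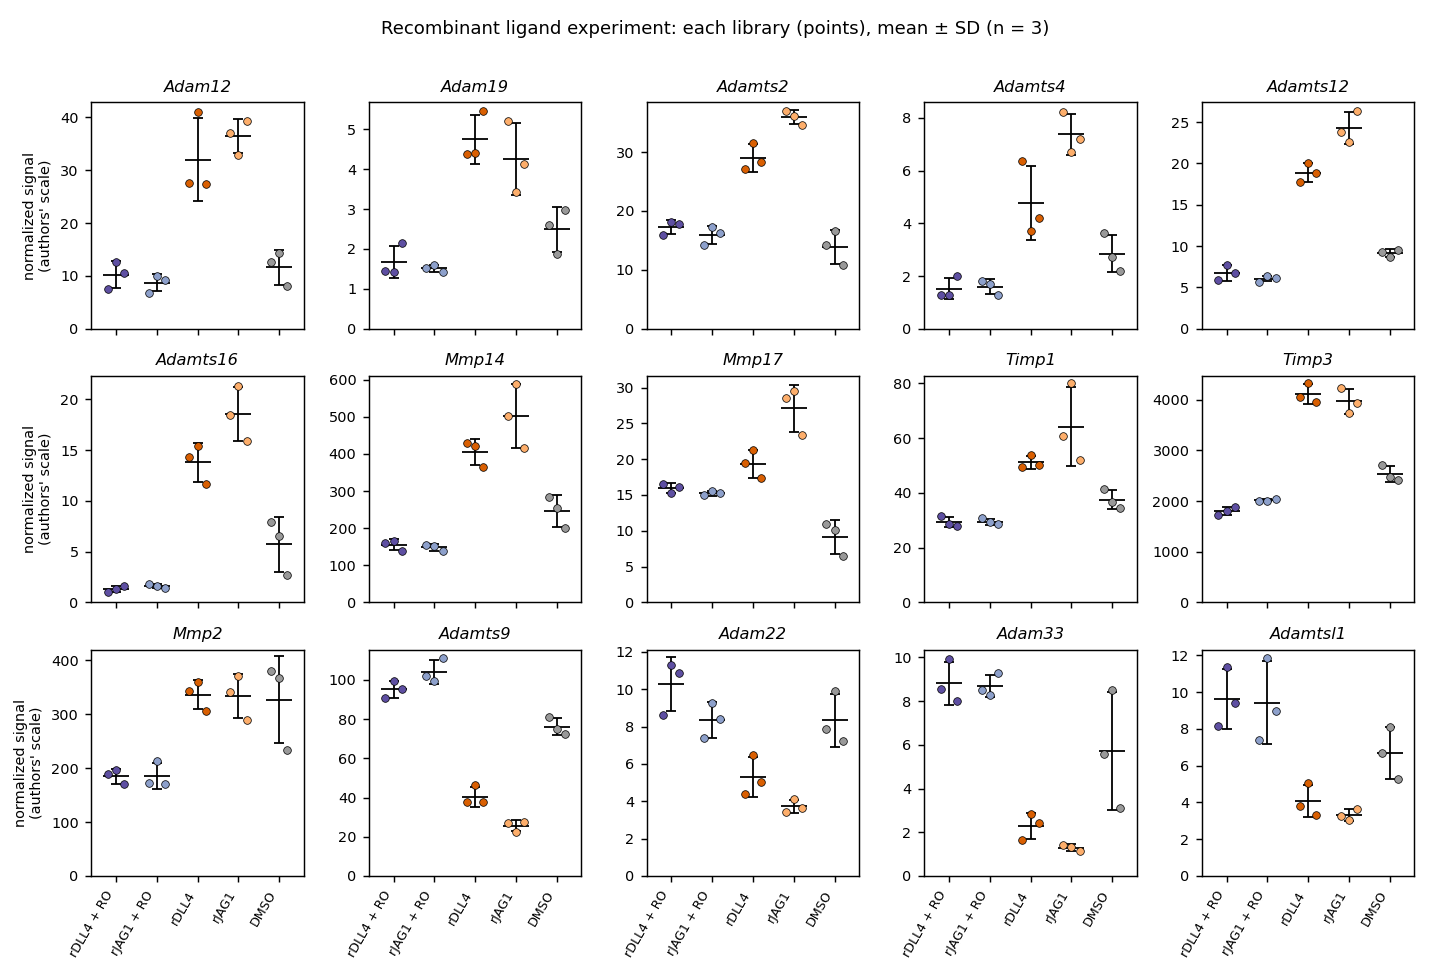
Normalized signal (linear axes from 0) of 15 members in each library of the recombinant-ligand experiment; points are libraries, with mean and SD (n = 3). In Adam12, Adamts12, Adamts16, Mmp14 and Timp3 the ligand libraries lie above all others, in Adamts9, Adam22, Adam33 and Adamtsl1 they lie below all others, and in Mmp2 only the libraries with RO4929097 stand apart, between 169.6 and 213.

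Cells that had both ligand and inhibitor were also set against DMSO. Mmp14, Mmp2 and Adamts16 lay below DMSO on both ligands, and Mmp17 lay above it on both; of these 4 only Mmp17 differed from DMSO in the same direction as with ligand alone. On rDLL4 with inhibitor, 1 member rose and 4 fell (13.9%, against 1.4% of all genes), and on rJAG1 with inhibitor 2 rose and 4 fell (16.7%, against 0.94%). The log2 differences were -0.66 ± 0.13 (adjusted p = 0.0211) and -0.72 ± 0.13 (adjusted p = 0.014) for Mmp14, and -0.79 ± 0.15 (adjusted p = 0.0187) and -0.79 ± 0.15 (adjusted p = 0.0212) for Mmp2. Adamts16 differed by -1.45 ± 0.24 (adjusted p = 0.00744) and -1.27 ± 0.24 (adjusted p = 0.0208), and Mmp17 by 0.77 ± 0.15 (adjusted p = 0.0159) and 0.71 ± 0.15 (adjusted p = 0.0298). Timp3 was lower on rDLL4 with inhibitor (-0.49 ± 0.08, adjusted p = 0.00664) and differed by -0.33 ± 0.08 (adjusted p = 0.0743) on rJAG1 with inhibitor, which the replicate block called (adjusted p = 0.027). Adamts12 was lower (-0.52 ± 0.10, adjusted p = 0.0252) and Adamts9 higher (0.45 ± 0.09, adjusted p = 0.0338) on rJAG1 with inhibitor. With the block, 8 members were called on rDLL4 with inhibitor, adding Adamts5, Adamts7 and Adamts12, and on rJAG1 with inhibitor it added Timp3, Adamts1 and Adamts5; this fit called 4.38% of all genes on rDLL4 with inhibitor and 2.9% on rJAG1 with inhibitor. These calls depended on single libraries, and the counts in such fits are given without the share of all genes. On rDLL4 with inhibitor, Mmp14 and Mmp2 were lost when any inhibitor library or DMSO library 1 was left out, and Mmp17 when any inhibitor library was, which left 2 calls without any 1 inhibitor library and 3 without DMSO library 1. On rJAG1 with inhibitor all 6 calls were lost without inhibitor library 3, and the count was 1 without inhibitor library 1 or DMSO library 1, and 2 without inhibitor library 2. There Adamts9 was lost in all 6 fits, Adamts12 in all but that without DMSO library 2, Adamts16 in all but that without DMSO library 3, Mmp2 in all but those without DMSO library 3 or inhibitor library 2, Mmp17 without any 1 inhibitor library and Mmp14 without inhibitor library 3 or DMSO library 1. Only Adamts16 and Timp3 on rDLL4 kept their calls in all 6 fits.

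The ligands were also set against each other. Adamts9 was higher with rDLL4 than with rJAG1, by 0.65 ± 0.09 (adjusted p = 0.00874), the only member of 36 called (2.8%, against 0.231% of all genes), and the call was kept without each of the 6 libraries in turn. The Notch targets Hey1 (-1.295) and Heyl (-1.513) were called lower with rDLL4 than with rJAG1. They were also called in the comparison of the inhibitor's effects given below (1.44 and 1.562). The ligands carry different tags, His and Fc, so ligand and tag cannot be told apart. Mmp17 differed by -0.46 ± 0.15 (adjusted p = 0.346) and Mmp14 by -0.30 ± 0.13 (adjusted p = 0.663), neither of which passed. With the inhibitor present no member was called by limma between rDLL4 and rJAG1 (0 of 36, against 0.0% of all genes), and 0 had an unadjusted p under 0.05. By limma 0 of 36 members were called for a difference between the inhibitor's effects on the ligands (0.0149% of all genes), with 4 of 36 at an unadjusted p under 0.05; the differences were -0.77 ± 0.13 (adjusted p = 0.133) for Adamts9 and 0.52 ± 0.21 (adjusted p = 1) for Mmp17.

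Other genes moved with the ligands in this experiment. The 10 listed of 15 genes marking OP9 stroma, most of whose signal was Col1a1 and Col1a2, summed to 3402 to 3747 with rDLL4 plus inhibitor, 3406 to 3868 with rJAG1 plus inhibitor, 4922 to 5395 with rDLL4, 4991 to 5733 with rJAG1 and 3097 to 4063 in DMSO, although the labels name no OP9 cells here. The 6 listed of 12 endothelial genes summed to 161.9 to 172.9 with rDLL4 plus inhibitor, 143.4 to 164.7 with rJAG1 plus inhibitor, 116.3 to 146.1 with rDLL4, 97.7 to 111 with rJAG1 and 128.5 to 192.7 in DMSO. Their median log2 difference from DMSO was 0.072 with rDLL4 and 0.169 with rJAG1, with Cd34 alone called, lower with both. On adding the inhibitor the medians were -0.303 on rDLL4 and -0.334 on rJAG1. Cd34 was then higher and Nfatc1 lower on both, and on rJAG1 Tek was higher and Kdr and Eng lower. The endothelial sums thus do not stand for most of these genes. The part of the stromal and endothelial genes in the members' differences was not tested. Of the other genes of pericellular proteolysis, 22 of 31 listed here, Pcsk5 and Reck fell with both ligands. Pcsk5, a proprotein convertase, differed by -0.76 ± 0.10 (adjusted p = 0.000259) with rDLL4 and -1.23 ± 0.10 (adjusted p = 8.33e-07) with rJAG1, and Reck, a membrane-anchored inhibitor of MMPs, by -0.44 ± 0.10 (adjusted p = 0.024) and -0.81 ± 0.10 (adjusted p = 7.11e-05). With rJAG1, 2 of the 22 rose and 5 fell. Bmp1, which cleaves the C-propeptide of procollagens, rose by 0.59 ± 0.12 (adjusted p = 0.00462) and Furin, an activator of membrane-type MMPs and ADAMs, by 0.25 ± 0.07 (adjusted p = 0.0376). Under the inhibitor 4 rose and 4 fell on rDLL4, and 7 rose and 6 fell on rJAG1.

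Promoter windows of the 250 bases before RefSeq transcript starts (GRCm38.p6) were found for 25 of the 41 members, 28 windows in all. The core letters bound by RBPJ, the DNA-binding partner of Notch, TGGGAA on either strand (TTCCCA), occurred in 6 of 28 member windows (21.4%), against 21.6% of 32851 windows of the same length. The 4 windows shown belong to members that moved with the ligands: Timp1 (chrX:20869916-20870165, plus strand) and Adam22 (chr5:8368161-8368410, minus strand) hold the letters, in capitals, and Mmp14 (chr14:54431348-54431597, plus strand) and Adamts12 (chr15:11064523-11064772, plus strand) do not. The match starts 158 bases before the start of Timp1 and 118 bases before that of Adam22. A match is a run of letters and no evidence of binding, and its absence concerns this window alone.
Timp1: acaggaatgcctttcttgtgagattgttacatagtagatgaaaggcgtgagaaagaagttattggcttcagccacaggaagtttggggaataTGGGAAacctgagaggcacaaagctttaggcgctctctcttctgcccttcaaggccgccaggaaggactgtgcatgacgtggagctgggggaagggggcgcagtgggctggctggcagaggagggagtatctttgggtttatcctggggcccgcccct
Adam22: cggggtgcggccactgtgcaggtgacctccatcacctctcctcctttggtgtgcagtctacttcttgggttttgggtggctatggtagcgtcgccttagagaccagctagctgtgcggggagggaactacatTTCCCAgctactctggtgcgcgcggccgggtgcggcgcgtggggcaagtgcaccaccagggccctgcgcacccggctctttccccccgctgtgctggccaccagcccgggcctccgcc
Mmp14: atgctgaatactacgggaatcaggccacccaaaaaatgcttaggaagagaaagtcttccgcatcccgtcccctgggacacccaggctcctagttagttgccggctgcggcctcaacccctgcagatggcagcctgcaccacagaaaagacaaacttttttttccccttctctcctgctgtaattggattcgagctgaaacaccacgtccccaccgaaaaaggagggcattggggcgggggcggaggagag
Adamts12: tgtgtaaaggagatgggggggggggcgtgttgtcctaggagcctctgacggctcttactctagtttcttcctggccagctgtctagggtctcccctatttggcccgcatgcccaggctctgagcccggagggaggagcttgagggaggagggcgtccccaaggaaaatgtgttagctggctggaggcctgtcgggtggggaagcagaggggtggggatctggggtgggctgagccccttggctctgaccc

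The inhibitor co-culture asked what RO4929097 changed in MEEC laid over OP9-GFP feeders. Adam12, Adamts2, Mmp14, Mmp2 and Timp3 fell with the inhibitor and no member rose. These are 5 of 35 listed members (14.3%), against 0.909% of all 12984 genes. The median log2 difference over the members was -0.048, against 0.003 over all genes. All libraries of the inhibitor group lay below all DMSO libraries in each of the 5 genes. These genes were picked by their calls, which favour such separation, and its share over all genes was not counted.

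Mmp14 had a signal of 197, 189, 213 and 240.0 with RO4929097, against 303, 286, 319.9 and 385 with DMSO. Its log2 difference was -0.62 ± 0.10 (adjusted p = 0.0166). Mmp2 had 177, 173, 192 and 159 with RO4929097, against 268, 217, 262 and 245 with DMSO, a difference of -0.50 ± 0.08 (adjusted p = 0.0148). The transcripts of MMP2 and of its activator MMP14 were both lower with the inhibitor, with no overlap in either. Adam12 had 13.7, 13.0, 17.3 and 14.8 with RO4929097, against 37.5, 27.5, 40.8 and 36.2 with DMSO. The groups were widely separated, with a difference of -1.21 ± 0.12 (adjusted p = 0.0022). Adamts2 had 10.8, 14.8, 13.5 and 13.3 with RO4929097, against 21.5, 23.7, 22.9 and 25.0 with DMSO, a difference of -0.79 ± 0.10 (adjusted p = 0.00519). Timp3 had 1363, 1824, 1833 and 1848 with RO4929097, against 2350.5, 2361, 2721 and 2789 with DMSO. The first inhibitor library lay apart from the other 3, and the difference was -0.58 ± 0.11 (adjusted p = 0.0488).

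Adam12 and Adamts2 were called in all 8 fits that left out 1 library. Mmp14 was lost without DMSO library 3 or inhibitor library 2 or 3 (-0.69 to -0.53), Mmp2 without DMSO library 3 or inhibitor library 2 (-0.56 to -0.45), and Timp3 whichever of the 8 was left out (-0.62 to -0.47). The Timp3 call was also lost after quantile normalization. The count of calls was 2 without DMSO library 3 or inhibitor library 2 and 3 without inhibitor library 3, given without the share of all genes. With the replicate block, which called 3.29% of all genes, all 5 passed, and Adamts12 (-0.47 ± 0.10, adjusted p = 0.0379) and Adamts4 (-0.58 ± 0.12, adjusted p = 0.0299) were called as well. Adam33 lay above DMSO in every inhibitor library but was not called (0.70 ± 0.19, adjusted p = 0.168). Timp1 differed by -0.23 ± 0.10 (adjusted p = 0.44), Timp2 by 0.08 ± 0.06 (adjusted p = 0.741), Adam19 by -0.14 ± 0.16 (adjusted p = 0.845) and Mmp13 by -0.07 ± 0.14 (adjusted p = 0.923), none of them called. Adamts1, Adam8 and Adam15 differed by 0.03, 0.08 and 0.07, also not called. The 9 listed of 15 OP9 stromal genes summed to 3658 to 4428 with RO4929097 and 4160 to 5489 with DMSO, and the 6 listed of 12 endothelial genes to 110.5 to 122.5 with RO4929097 and 97.2 to 104.8 with DMSO. The median log2 difference was -0.103 over the stromal and -0.165 over the endothelial genes, with none called in either list. The part of both lists in these results was not tested. None of the 23 listed other genes of pericellular proteolysis was called.

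**Figure D3:**
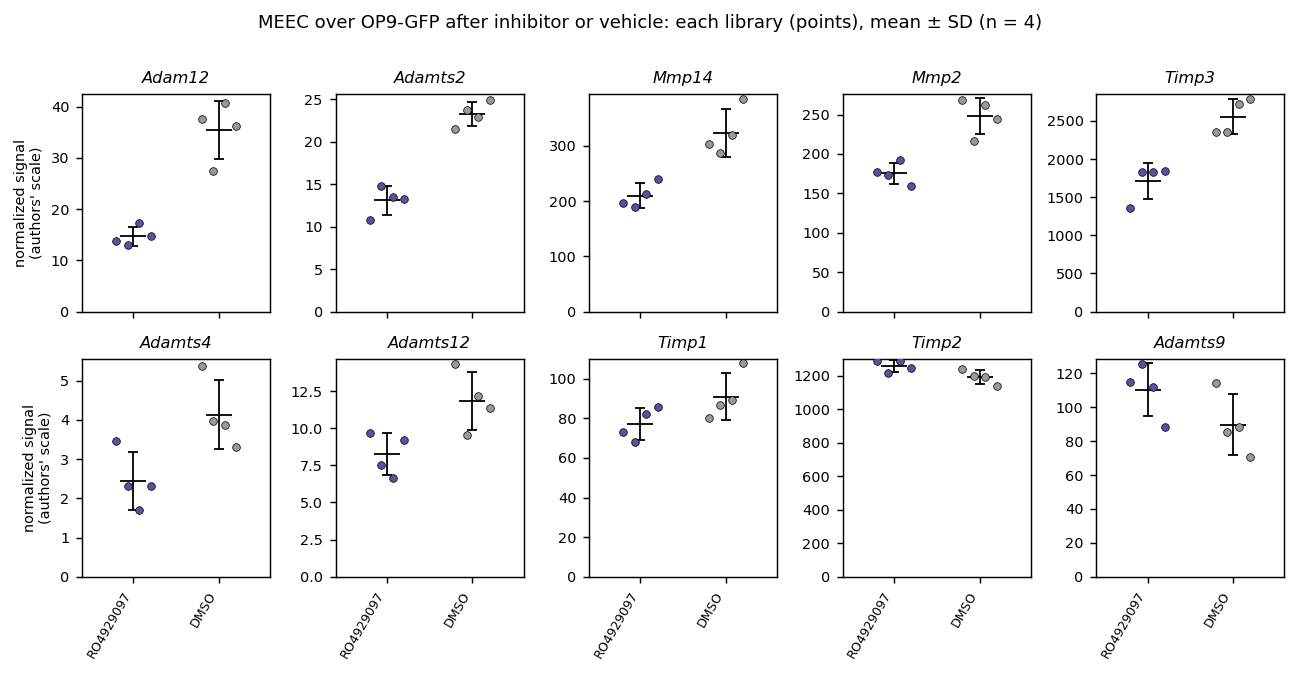
Normalized signal (linear axes from 0) of 10 members in each library of MEEC over OP9-GFP after RO4929097 or DMSO; points are libraries, with mean and SD (n = 4). In the first 5 genes every RO4929097 library lies below every DMSO library.

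The co-culture and the recombinant experiment share no library. Of the 34 members listed in both, 27 had the same sign of difference under the inhibitor in the co-culture and on rDLL4, where 61.6% of all 12713 shared genes did, and 30 had the same sign in the co-culture and on rJAG1, where 59.9% of all genes did. Of the members called on rDLL4, 16 of 16 had the same sign in the co-culture (84.5% of all genes called on rDLL4), and of those called on rJAG1, 20 of 20 (75% of all genes called on rJAG1).

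In the feeder experiment few members were called against OP9-GFP. Over OP9-Jag1 at 24 h, Adamts2, Adamts4 and Adamtsl4 rose and none fell, 3 of 41 members (7.3%), against 2.02% of all genes. Adamts2 had 38.5, 33.5 and 44.6 over OP9-Jag1, against 17.04, 13.1 and 18.4 over OP9-GFP, with no overlap and a difference of 1.22 ± 0.28 (adjusted p = 0.0297). Adamts4 had 5.95, 5.68 and 6.04 over OP9-Jag1, against 2.73, 1.99 and 2.65 over OP9-GFP, again with no overlap and a difference of 1.00 ± 0.17 (adjusted p = 0.00477). Adamtsl4 had 16.6, 21.1 and 19.1 over OP9-Jag1, against 14.1, 13.4 and 14.5 over OP9-GFP, a difference of 0.41 ± 0.10 (adjusted p = 0.0362). Only the Adamts4 call was kept in all 6 fits that left out 1 library. Those of Adamts2 and Adamtsl4 were each kept in 1 fit, without OP9-Jag1 library 2 for Adamts2 (1.08 to 1.32 over the 6 fits) and without OP9-Jag1 library 1 for Adamtsl4 (0.33 to 0.49), and Adamtsl4 also missed the threshold after quantile normalization.

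With the replicate number as a block, 16 members were called over OP9-Jag1 at 24 h, 11 higher and 5 lower, when 10.9% of all genes were. Adam12 had 78.4, 43.5 and 93.9 over OP9-Jag1, against 46.4, 21.3 and 51.8 over OP9-GFP; library 2 was the lowest of each group, so the groups overlapped, while each pair of the same number differed in the same direction. It differed by 0.86 ± 0.36 (adjusted p = 0.361), and the adjusted p was 9.3e-07 with the block. Adamts9 had 71.3, 99.1 and 87.1 over OP9-Jag1, against 133, 139 and 140.3 over OP9-GFP, with no overlap. Its difference was -0.69 ± 0.19 (adjusted p = 0.0908), and the adjusted p was 1.2e-06 with the block. Mmp17 (0.68 ± 0.09, adjusted p = 5.67e-05), Adam19 (0.60 ± 0.11, adjusted p = 0.00175), Mmp23 (0.57 ± 0.13, adjusted p = 0.00601) and Mmp14 (0.22 ± 0.05, adjusted p = 0.00578) were also higher with the block, as were Mmp15, Adamts1 and Adamts16, at 0.38, 0.17 and 0.64. Adam9 (-0.18 ± 0.04, adjusted p = 0.00563) and Timp2 (-0.17 ± 0.04, adjusted p = 0.0139) were lower, as were Adamts20 and Adamtsl5, at -0.33 and -0.29.

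Over OP9-Dll4 at 24 h no member was called by limma, where 0.511% of all genes were, with 7 members at an unadjusted p under 0.05 and 0 called by edgeR, which called 0.331% of all genes. Adamts4 had 4.45, 4.16 and 6.30 over OP9-Dll4, against the OP9-GFP values given above, and lay at the threshold with 0.78 ± 0.17 (adjusted p = 0.0521). Adamts2 had 32.0, 25.5 and 32.3 over OP9-Dll4 and differed by 0.85 ± 0.28 (adjusted p = 0.323). With the block, which called 5.82% of all genes, 6 rose and 1 fell. These were Adamts2, Adam12 (0.75 ± 0.08, adjusted p = 9.62e-06), Adamts4, Mmp17 (0.64 ± 0.09, adjusted p = 0.000239), Mmp23 (0.51 ± 0.13, adjusted p = 0.0218) and Adam19 (0.40 ± 0.11, adjusted p = 0.0498) upward and Adamts9 (-0.54 ± 0.07, adjusted p = 4.09e-05) downward. In the OP9-Dll4 libraries at 24 h the 7 listed of 11 cardiomyocyte genes summed to 44.5 to 80.9, against 30.3 to 33.8 over OP9-GFP at 24 h; their part in these results was not tested. The 7 listed of 12 endothelial genes summed to 76.7 to 85.8 over OP9-Dll4, 74 to 85.8 over OP9-Jag1 and 99.8 to 102.6 over OP9-GFP at 24 h, and the 10 listed of 15 OP9 stromal genes to 4783 to 7042, 5074 to 7576 and 3611 to 5764 over the same feeders. Only Cd34 of the endothelial genes was called, lower over both ligand feeders. The endothelial median log2 difference was 0.142 over OP9-Dll4 and 0.226 over OP9-Jag1. The part of both lists was not tested either. Between OP9-Dll4 and OP9-Jag1 at 24 h none of the 41 members was called, where 0.0288% of all genes were, with 0 members at an unadjusted p under 0.05 and 0 called by edgeR; with the block, which called 0.483% of all genes, Adamts1 (-0.24 ± 0.05, adjusted p = 0.0468) and Adamts2 (-0.36 ± 0.07, adjusted p = 0.0355) were lower over OP9-Dll4.

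At 6 h no member was called over OP9-Dll4 or OP9-Jag1, where 0.0072% and 0.101% of all genes were, with 1 and 2 members at an unadjusted p under 0.05 and 0 called by edgeR in both. The 5 Notch target and feedback genes had 0 calls over OP9-Dll4 at this time as well, which limits what the lack of member calls there shows. With the block, which called 1.17% of all genes over OP9-Dll4 and 3.36% over OP9-Jag1, Adam12 was higher over OP9-Dll4 (0.34 ± 0.08, adjusted p = 0.0473), and Adamts4 (0.54 ± 0.12, adjusted p = 0.0137), Adamts2 (0.40 ± 0.07, adjusted p = 0.00376) and Adam12 (0.40 ± 0.08, adjusted p = 0.00831) were higher over OP9-Jag1. No member was called between the ligands at 6 h (0.0% of all genes), with 0 at an unadjusted p under 0.05 and 0 called by edgeR. The change of the ligand effect between the times was not called for any member (0.0072% of all genes for each ligand), with 0 members for OP9-Dll4 and 3 for OP9-Jag1 at an unadjusted p under 0.05 and 0 called by edgeR in both. With the block, which called 0.252% of all genes for OP9-Dll4 and 1.31% for OP9-Jag1, it was called for Adamts2 (0.60 ± 0.10, adjusted p = 0.0169 for OP9-Dll4 and 0.82 ± 0.10, adjusted p = 0.00041 for OP9-Jag1), Adamts9 (-0.49 ± 0.09, adjusted p = 0.0329 and -0.46 ± 0.09, adjusted p = 0.0174) and, for OP9-Jag1, Adam12 (0.47 ± 0.11, adjusted p = 0.0497). The TIMPs were called in none of the ligand comparisons of the main fit in this experiment, with log2 differences from OP9-GFP between -0.17 for Timp2 and 0.13 for Timp1, both over OP9-Jag1. Over the same 4 comparisons the differences ran from -0.02 to 0.12 for Mmp2, -0.25 to 0.28 for Mmp13, 0.10 to 0.22 for Mmp14, -0.12 to 0.17 for Adam8, -0.03 to 0.06 for Adam15 and -0.07 to 0.17 for Adamts1, none of them called without the block.

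Against the recombinant ligands, which share no library with this experiment, 32 of 36 shared members had the same sign over OP9-Jag1 at 24 h as with rJAG1 (59.7% of all shared genes did), and 29 of 36 had the same sign over OP9-Dll4 at 24 h as with rDLL4 (57.5%). Of those called with the recombinant ligand, 15 of 16 for rJAG1 (87.4% of all genes called) and 11 of 11 for rDLL4 (90.3%) had the same sign in co-culture.

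The 24 h co-cultures were then set against those of 6 h. MEEC confluency was 25% at 24 h and 50% at 6 h, so time and density cannot be told apart. Over OP9-GFP, 4 members were higher and 8 lower at 24 h, 29.3% of the 41 against 19.2% of all genes. Over OP9-Dll4, 3 were higher and 5 lower (19.5%, against 17.4%), and over OP9-Jag1 5 were higher and 2 lower (17.1%, against 14.7%), shares close to those of all genes. Single libraries moved these counts: over OP9-GFP to 5 without 24 h library 1, 7 without 6 h library 2 and 6 without 6 h library 3, over OP9-Dll4 to 5 without 24 h library 2 and 4 without 6 h library 2 or 3, and over OP9-Jag1 to 12 without 6 h library 1 and 4 without 6 h library 2. The share of all genes called without these libraries is not given here. Mmp13 and Adam19 fell furthest over OP9-GFP, and Adamts9, Timp3, Adam9 and Adamtsl4 rose.

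Mmp13, which cleaves fibrillar collagen, had 1.44, 1.204 and 0.679 over OP9-Dll4, 1.13, 0.516 and 1.24 over OP9-Jag1 and 0.744, 0.614 and 0.798 over OP9-GFP at 24 h, against 5.28, 15.8 and 10.8 over OP9-Dll4, 4.25, 13.3 and 8.49 over OP9-Jag1 and 4.81, 18.8 and 9.44 over OP9-GFP at 6 h. Every 24 h library lay below every 6 h library, and library 2 was the highest of each 6 h group. The 24 h against 6 h differences were -2.37 ± 0.41 (adjusted p = 0.0011) over OP9-Dll4, -2.21 ± 0.41 (adjusted p = 0.00197) over OP9-Jag1 and -2.63 ± 0.41 (adjusted p = 0.000471) over OP9-GFP. Without the 6 h libraries numbered 2 they were -2.05, -1.87 and -2.18, all still called. The signal of 24 h libraries lay above that of 3 reads, which was at most 0.221.

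Timp3 moved the other way, with 3202, 3422 and 3626 over OP9-Dll4, 3223, 3460.5 and 3881 over OP9-Jag1 and 3047, 3360.1 and 3309 over OP9-GFP at 24 h, against 2218, 2397 and 2290.0, 2373, 2314 and 2413 and 2006, 2329 and 2203 over the same feeders at 6 h. All 9 libraries at 24 h lay above all 9 at 6 h. The difference was 0.57 ± 0.10 (adjusted p = 0.0013) over OP9-Dll4, 0.57 ± 0.10 (adjusted p = 0.00138) over OP9-Jag1 and 0.57 ± 0.10 (adjusted p = 0.00125) over OP9-GFP, and was called whichever library was left out. Timp1 and Timp2 were not called between the times, with differences of -0.17 to -0.07 for Timp1 and -0.12 to 0.01 for Timp2.

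Adam19 had 12.1, 8.34 and 9.29 over OP9-GFP at 24 h, against 18.7, 41.7 and 24.6 at 6 h. The groups did not overlap, and it fell by 1.37 (SE 0.27, adjusted p = 0.00276). Over OP9-Dll4 it fell by 0.93 (adjusted p = 0.0275), a call lost without OP9-Dll4 24 h library 2 or 6 h library 2 or 3 (-1.06 to -0.69), and over OP9-Jag1 the difference was -0.75 ± 0.27 (adjusted p = 0.0726), not called. Mmp19 had 2.44, 2.71 and 3.67 over OP9-GFP at 24 h, against 4.62, 6.81 and 7.89 at 6 h, a difference of -0.90 ± 0.23 (adjusted p = 0.0124) that was no longer called without 24 h library 1 or 6 h library 3 (-1.09 to -0.76). It was also lower over OP9-Dll4 (-0.76 ± 0.23, adjusted p = 0.0325), a call lost in 4 of 6 fits that left out 1 library (-1.02 to -0.53), without the 6 h libraries numbered 2 and after quantile normalization. Over OP9-GFP the calls of Adam11 (-0.73), Adam22 (-0.67), Adam8 (-0.61), Mmp11 (-0.53) and Mmp15 (-0.53) were each lost without 1 or more single libraries, those of Adam22 and Mmp11 also without the 6 h libraries numbered 2, and all 5 after quantile normalization. Mmp2 fell short of the threshold in all 3 feeders, with differences of -0.51 ± 0.31 (adjusted p = 0.268), -0.40 ± 0.31 (adjusted p = 0.434) and -0.54 ± 0.31 (adjusted p = 0.229) over OP9-Dll4, OP9-Jag1 and OP9-GFP.

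Adam9 had 799, 809.8 and 778 over OP9-GFP at 24 h, against 596, 574 and 596 at 6 h, with no overlap. It rose by 0.35 ± 0.07 (adjusted p = 0.00368) over OP9-Dll4, 0.28 ± 0.07 (adjusted p = 0.0151) over OP9-Jag1 and 0.43 ± 0.07 (adjusted p = 0.000822) over OP9-GFP, though after quantile normalization the differences over the ligand feeders did not pass, and that over OP9-Jag1 was also lost without OP9-Jag1 library 2 of either time. Adamtsl4 rose over all 3 feeders, by 0.56 ± 0.10 (adjusted p = 0.0011) over OP9-Dll4, 0.66 ± 0.10 (adjusted p = 0.000312) over OP9-Jag1 and 0.29 ± 0.10 (adjusted p = 0.0458) over OP9-GFP, the last a call lost without each of its 6 libraries in turn. Adamts9 rose over OP9-GFP, by 0.69 ± 0.19 (adjusted p = 0.0217), a call lost in 5 of 6 such fits (0.56 to 0.88). The other members called over the ligand feeders were Adam22 (-0.98 ± 0.22, adjusted p = 0.00731), Adamts1 (0.42 ± 0.12, adjusted p = 0.0247) and Adamts6 (0.52 ± 0.15, adjusted p = 0.0264) over OP9-Jag1 and Adam11 (-0.60 ± 0.20, adjusted p = 0.0495) and Adam4 (-0.60 ± 0.19, adjusted p = 0.0385) over OP9-Dll4, named here, apart from Adamts1, after their values were seen. Of these 5, only Adam22 kept its call in all 6 fits that left out 1 library. Mmp14, Adam15 and, over OP9-Dll4 and OP9-GFP, Adamts1 were not called between the times, with differences of 0.20 to 0.32 for Mmp14 and -0.13 to -0.02 for Adam15. The 3 listed of 9 leukocyte and erythroid genes summed to 3.16 to 4.66 over OP9-GFP at 24 h and 7.68 to 11.8 at 6 h. The 7 listed of 11 cardiomyocyte genes summed to 44.5 to 80.9 over OP9-Dll4 at 24 h and 24.9 to 44 at 6 h, with Myh7, Myl2, Actc1 and Ttn called higher and Myl7 lower. Of the 10 listed OP9 stromal genes, Thy1 was lower at 24 h over all 3 feeders, at -0.64 over OP9-Dll4, -0.91 over OP9-Jag1 and -0.50 over OP9-GFP. Cebpa was lower over OP9-Jag1 (-0.74), and no other stromal gene was called. The stromal median log2 difference was -0.2 over OP9-Dll4, -0.045 over OP9-Jag1 and -0.306 over OP9-GFP. The stromal sums overlapped between the times over each feeder. Endothelial genes went both ways. Flt1 was lower over OP9-Dll4 (-1.62) and OP9-GFP (-1.71), while Cd34 was higher over OP9-GFP (0.475 ± 0.073, adjusted p = 0.000418). The part of these genes in the members' results was not tested. Among the other genes of pericellular proteolysis, 1 of 23 rose and 9 fell over OP9-GFP at 24 h. Serpinb2, an inhibitor of plasminogen activators, fell by 2.61, the serine protease Htra3 by 1.43 and the urokinase gene Plau by 0.78 on the log2 scale, and Pcsk5 rose by 1.01 ± 0.13 (adjusted p = 9.07e-05).

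**Figure D4:**
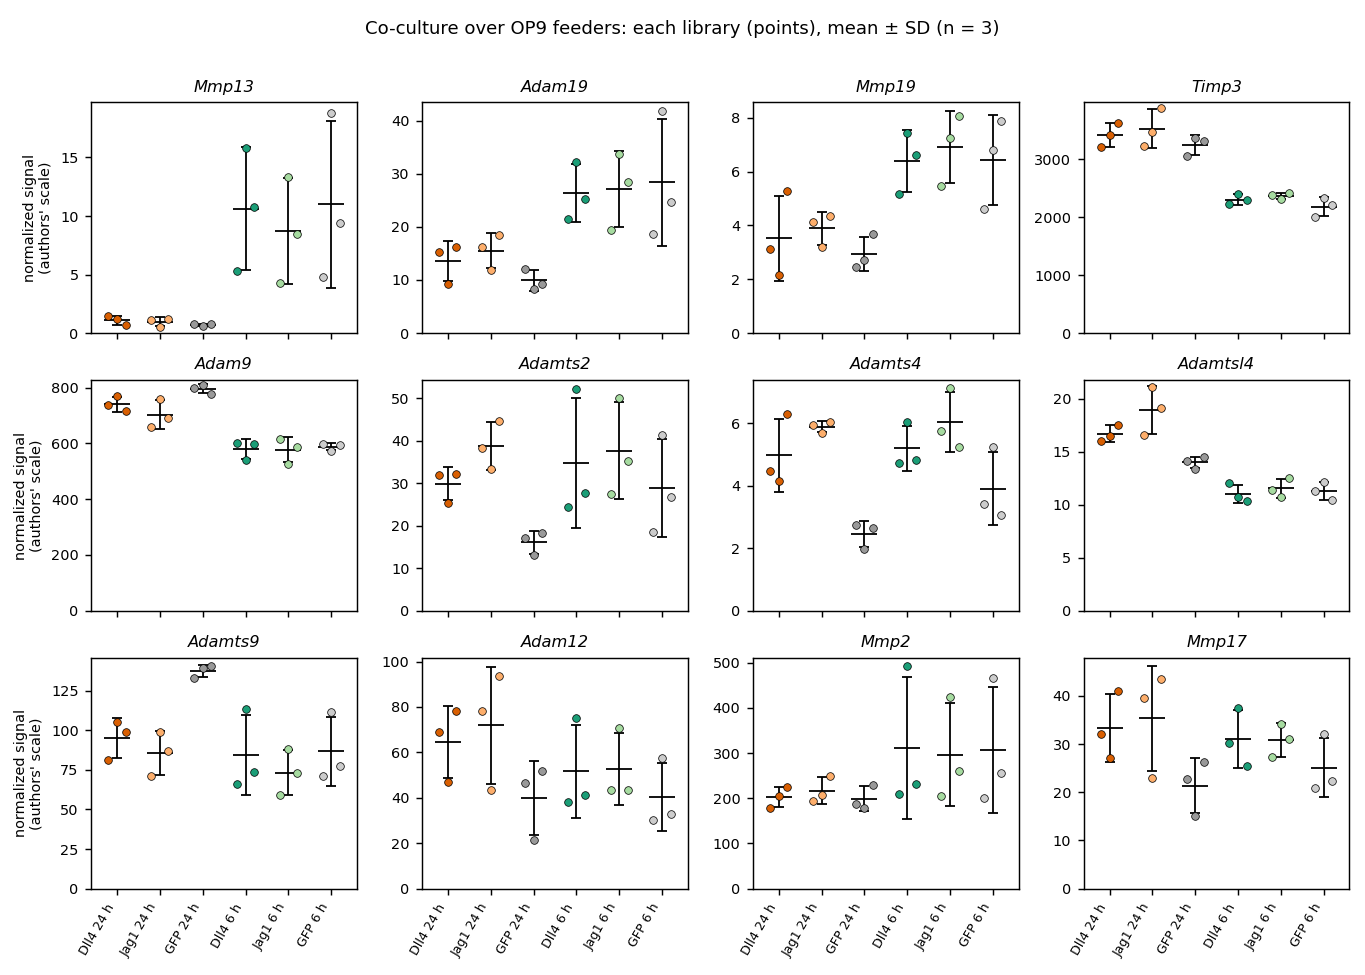
Normalized signal (linear axes from 0) of 12 members in each library of the feeder experiment, 24 h groups left of 6 h groups; points are libraries, with mean and SD (n = 3). Mmp13 and Adam19 lie lower and Timp3 and Adam9 higher at 24 h, and the high point in 6 h groups of Mmp13, Adam12, Adamts2 and Mmp2 is library 2.

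Promoter windows of Mmp13 (chr9:7272264-7272513, plus strand) and of 1 of the 3 RefSeq starts of Adam19 (chr11:46055734-46055983, plus strand) are shown because they are the only member windows with a match to the AP-1 letters, and both genes fell between the times over OP9-GFP. Each holds the AP-1 letters TGAGTCA on one strand (TGACTCA on the other), in capitals. These occurred in 2 of 28 member windows (7.1%), against 4.5% of all windows. The windows of Adam8, Adam22, Mmp11 and Mmp15, which were also called lower over OP9-GFP, and the other 2 windows of Adam19 hold none. The match starts 35 bases before the start of Mmp13 and 131 bases before that of Adam19.
Mmp13: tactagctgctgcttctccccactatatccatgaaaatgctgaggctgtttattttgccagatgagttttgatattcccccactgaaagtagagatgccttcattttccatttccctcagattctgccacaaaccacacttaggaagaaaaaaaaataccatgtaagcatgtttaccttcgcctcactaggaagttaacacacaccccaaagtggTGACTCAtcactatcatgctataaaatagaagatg
Adam19: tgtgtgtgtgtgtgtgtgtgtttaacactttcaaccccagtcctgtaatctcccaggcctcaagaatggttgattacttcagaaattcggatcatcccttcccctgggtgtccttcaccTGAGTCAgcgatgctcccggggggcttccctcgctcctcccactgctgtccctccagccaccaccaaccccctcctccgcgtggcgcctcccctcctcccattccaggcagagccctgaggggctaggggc

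**Figure D5:**
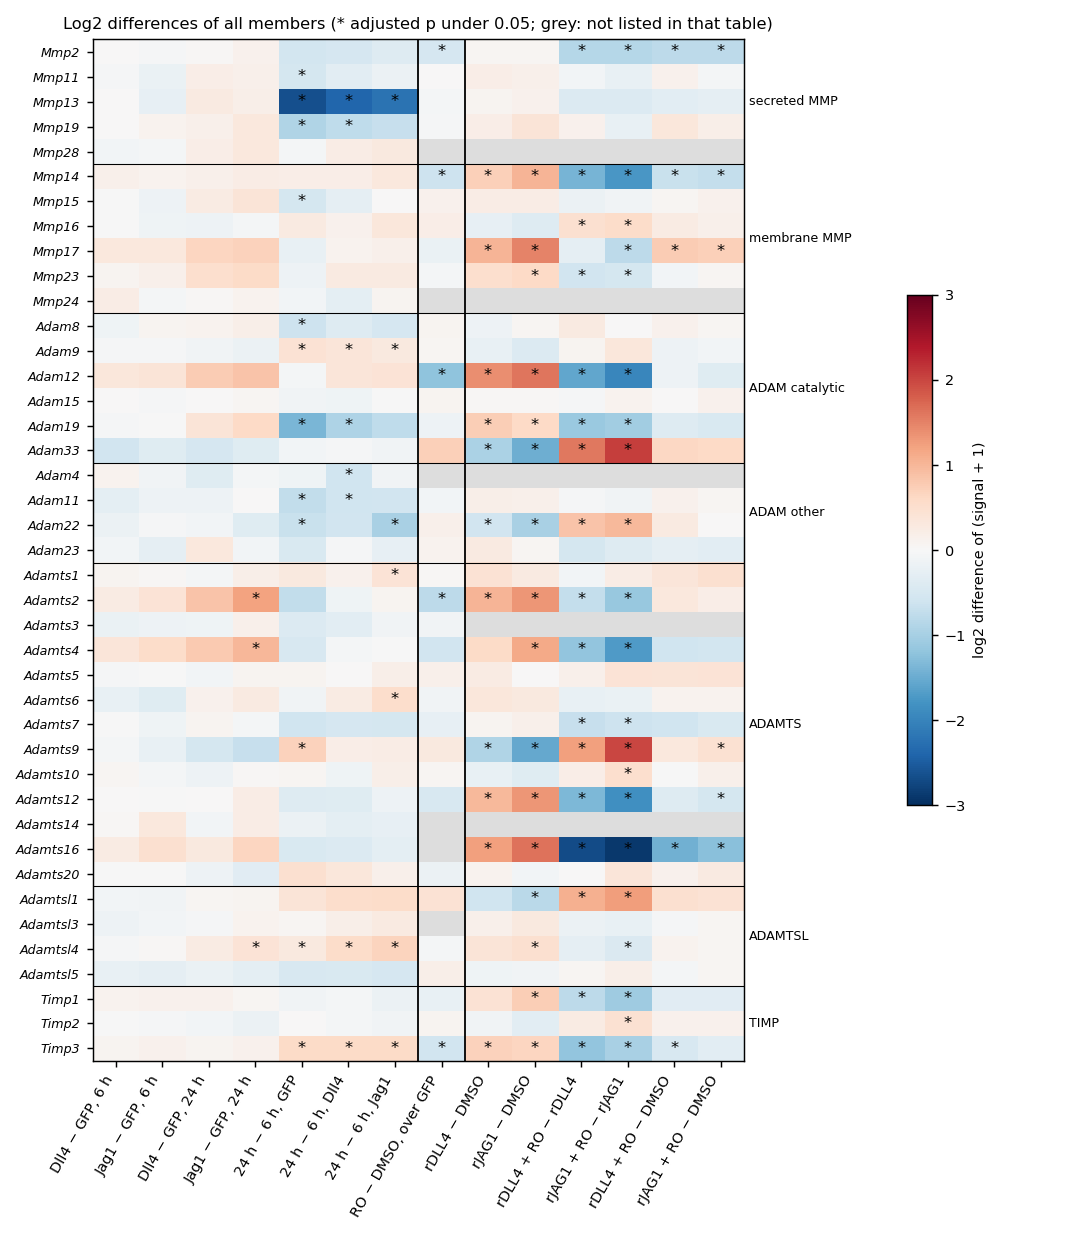
Log2 differences of (signal + 1) for all 41 members, ordered by class, in 14 comparisons of the 3 experiments; stars mark an adjusted p under 0.05 and grey marks genes not listed in that experiment. The colours of most called members turn round between ligand against DMSO and ligand plus RO4929097 against ligand, comparisons that share the ligand libraries. Ligand plus RO4929097 against DMSO holds 5 stars on rDLL4 and 6 on rJAG1. Mmp13 holds the darkest blue between the times.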

How the data were processed

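RNA-seq was read from 41 libraries in 13 groups, in 3 tables scaled apart. The values are the authors' deposited normalized signal per gene. GRCm38 and the tools FastQC, cutadapt, RSEM and limma, without versions, are named per the submitters' processing notes; strand setting and annotation release are not given in the sources used here. In the feeder experiment and 12 libraries of the recombinant one, low values were whole multiples of 1 read within 0.01 reads, which gave the depth and a floor of 3 reads; in the other 11 libraries depth was not read.

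From the deposited signal, log2(signal + 1) was fitted with limma 3.58.1 (R 4.3.3, empirical Bayes with trend) over all genes of a table, with all its groups in 1 model and Benjamini-Hochberg adjustment over all genes; calls have an adjusted p under 0.05. Since the signal is not a count, edgeR 4.0.16 served only as an alternative on reads recovered from the feeder experiment, where 100% of low values came out whole; it was not run on the other tables. The scripts were tested on simulated data. Alternatives were the replicate block, pseudocount 0.5, a filter at signal 4, quantile normalization, leaving out each library and, chosen after seeing the data, leaving out the 6 h libraries numbered 2. Deviations of same-numbered libraries from their group means correlated at 0.111 or more in all comparisons except the time comparisons, the inhibitor on rDLL4 and the inhibitor effect between ligands, whose lowest values were -0.05 to 0.08, so the numbers were taken to pair libraries in the first set only. The labels do not state this pairing, and libraries of different numbers were not correlated for comparison. Calls made only with the replicate block therefore rest on an assumed pairing. No 2 libraries of 1 group held identical values.

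Members and gene lists were chosen with earlier results of these data known. Named genes are all members called in a ligand or inhibitor comparison, the 10 largest called between times over OP9-GFP, the 5 highest by level, and Timp1, Timp2, Timp3, Mmp2, Mmp13, Mmp14, Adamts1, Adam8, Adam12, Adam15 and Adam19 throughout. The floor of 3 reads covers counting error only.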

Additional observations from a re-analysis of the deposited data

Results flagged for a closer look

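Within groups of 4 libraries, which occur in the inhibitor co-culture only, 70 sets of 4 values were tested for a single library far from the others, and chance flags about 1 in 20 of them. There were 4 such cases, and all concern library 1 of a group. Adam23, an ADAM without protease activity, was highest in library 1 of the RO4929097 group, at 16.57, and in library 1 of the DMSO group, at 13.96. Mmp23 was highest in DMSO library 1, at 6.901. Timp3 was lowest in RO4929097 library 1, at 1363, and without that library its difference from DMSO was -0.47 and not called.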

How the results depend on the processing

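None of the 112 called differences of members changed direction under the alternatives run for it, and no scaling moved the median of all genes by over 0.05 on the log2 scale. Counts of members called moved most with the replicate block: 1 and 3 over OP9-Dll4 and OP9-Jag1 at 6 h, 7 and 16 at 24 h, 2 between OP9-Dll4 and OP9-Jag1 at 24 h, 20 and 11 between times over OP9-GFP and OP9-Jag1, 2 and 3 for the change of the OP9-Dll4 and OP9-Jag1 effects between times, and 8 for rDLL4 with inhibitor against DMSO. Between times the block also called many other genes. Of all 13886 it called 2317 higher and 2217 lower over OP9-GFP, beside 48.8% of the members. Over OP9-Jag1 it called 1781 higher and 1727 lower, beside 26.8% of the members. Counts under the other alternatives, here and above, are given without the share of all genes. Over OP9-Dll4 at 24 h, 1 member was called with pseudocount 0.5, 1 after quantile normalization and 3 without the 6 h libraries numbered 2; between times over OP9-GFP quantile normalization left 7. Leaving out 1 library gave counts of 1 to 3 over OP9-Jag1 at 24 h, 5 to 11, 4 to 10 and 4 to 12 between times over OP9-GFP, OP9-Dll4 and OP9-Jag1, 2 to 5 for the inhibitor in co-culture, 8 to 13 with rDLL4, 14 to 19 with rJAG1, 14 to 16 and 17 to 20 for the inhibitor on rDLL4 and rJAG1, and 2 to 7 and 0 to 6 for rDLL4 and rJAG1 with inhibitor against DMSO. Of single calls, 98 passed and 14 did not after quantile normalization, 106 and 2 with the filter (Adam22 with rDLL4 and between times over OP9-GFP), 111 and 1 with pseudocount 0.5 (Adam22 with rDLL4), and all 112 passed with the block. On the inhibitor comparison on rDLL4, where the numbers do not pair libraries, the block added Timp2 and Adam23. With 3 or 4 libraries a group and depth read in only part of them, a difference that was not called is not shown to be absent.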
